A study of Mus musculus with 14 samples.

Results

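The 7 primary small cell lung tumours of the mouse with Rb1, Trp53 and Crebbp deleted were divided into groups chosen by the measured level of a single gene that cells other than tumour cells express. That gene was Ctss, which encodes cathepsin S, a lysosomal protease of macrophages and other antigen-presenting cells. Tumours 3, 5 and 6 had less than 1 CPM of Ctss (CPM is the counts-per-million scale, taken over all gene counts of a library) and are called stroma-poor. Tumours 1, 2, 4 and 7 had at least 60 CPM and are called stroma-containing. These 7 tumours are 7 of the 14 libraries of the series. The other 7 came from primary tumours with Rb1 and Trp53 deleted and Crebbp not named as deleted. Below, RPC stands for the Rb1/Trp53/Crebbp genotype and RP for Rb1/Trp53. All 14 tumours therefore share deletion of the tumour suppressor genes Rb1 and Trp53, and both groups of RPC tumours share deletion of Crebbp, a histone acetyltransferase and coactivator of transcription.

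The design asked which genes Crebbp regulates in these tumours, and the present comparison lies within the Crebbp-deleted genotype. The labels do not give the promoter that drove the deletions, the age of the mice, or whether each tumour came from its own mouse. They describe every library in the same words, as a primary tumour, while the extraction protocol speaks of lysed cells. No label separates tumours 3, 5 and 6 from the rest, so the groups come from the measured RNA alone.

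A solid tumour is a mixture of malignant cells and stroma. Stroma includes macrophages and other leukocytes, fibroblasts that lay down collagen, and the endothelial cells and pericytes of blood vessels. A tumour in the lung can also enclose alveolar and airway epithelium. Small cell lung cancer cells are neuroendocrine: they carry lineage factors such as Insm1 and make neuronal and secretory proteins. Cells make cholesterol from acetyl-CoA through the mevalonate pathway. The transcription factor SREBP2 turns on the enzymes of that pathway when membrane sterol is low, and the liver X receptors turn on sterol efflux genes when sterol is plentiful.

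Because Ctss chose the groups, and every other gene was read from the same libraries, no test of the difference between them is given. Levels, differences and counts of this contrast are a description of these 7 libraries, and nothing is concluded from how many genes differ. A gene is called higher or lower where the values of the 3 and the 4 tumours do not overlap and their mean log2 CPM differ by at least 1, which is 2-fold. Differences are stroma-poor minus stroma-containing on the log2 scale. Levels in CPM for the RPC tumours were scaled over these 7 libraries. Levels given for the RP tumours and summed levels of gene lists were scaled over all 14, so that sums and the levels of their members are not on exactly the same scale. In the test within RP tumours at the end, levels were scaled over the 7 RP libraries.

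The 3 stroma-poor libraries held 10060969 to 19369273 counts in genes and the 4 stroma-containing ones 10283448 to 24052799. A count of 0 allows up to 3 counts, which are 0.298, 0.155 and 0.264 CPM in tumours 3, 5 and 6. Reads outside annotated genes were 15.5% to 16.3% of the stroma-poor files, 17.0% to 19.4% of the stroma-containing files and 15.1% to 20.5% of the RP files. Genes with at least 1 count numbered 16462 to 16886 in stroma-poor and 17510 to 17928 in stroma-containing tumours. Across the compared genes, Spearman's rho was 0.898 to 0.927 between stroma-poor tumours, 0.909 to 0.947 between stroma-containing ones and 0.843 to 0.905 between the groups. No pair of RPC libraries was a repeat of the other (chi-square per degree of freedom at least 62.3 over 21 pairs).

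Ctss was at 0.102, 0 and 0.0888 CPM in stroma-poor tumours 3, 5 and 6, which rests on 1, 0 and 1 counts. It was at 85.4, 277, 61.3 and 88.4 CPM in stroma-containing tumours 1, 2, 4 and 7. In CPM over the plain sum of gene counts, as in the rule, the values nearest to the division were 0.0994 in tumour 3 and 61.6 in tumour 4. The RP tumours, which the division did not use, had 82.3, 133 and 243 CPM at the lowest, median and highest, so all 7 lie on the stroma-containing side.

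The RNA missing from the stroma-poor tumours was that of many cell types. The 17 lists of markers for cells other than tumour cells name 200 distinct genes, of which 190 were in the files and 146 had enough counts to compare. The 146 include Ctss, which chose the groups. Of the other 145, 102 were lower in the stroma-poor tumours and 0 were higher, with a median difference of -3.69. Over all 14656 genes compared, 9.38% were lower and 1.3% were higher, and the median difference was 0.003. Of the 146, 19 had 0 counts in all 3 stroma-poor tumours. Such markers were compared only through their level in the stroma-containing tumours and could only be lower. Markers low in both groups were not compared, so the filter on counts in part fixes the share lower and the median. Of the stroma-containing summed level, the macrophage list without Ctss kept 0.574% and the dendritic cell and MHC class II list 1.08%, the least. The other lists kept more, in part from single genes. Blood cell lists among them kept from 4.47% for B and plasma cells to 33.3% for neutrophils. The neutrophil list summed to 9.36, 8.905 and 8.42 CPM in tumours 3, 5 and 6. Nearly all of that was Cxcr2, which was level between the groups, at 8.69, 8.34 and 8.35 CPM there. The endothelial list kept 8.51%, the fibroblast list 19.1%, and lung epithelial lists from 6.59% for club cells to 42.4% for alveolar type 1 cells. Vegfa, not called, was at 187 and 302.5 CPM in tumours 3 and 5, most of the 256 and 372 CPM of the type 1 list there. Ptprc, Cdh5, Col3a1 and Beta-s, picked as markers of leukocytes, endothelium, fibroblasts and red cells, had 0 to 6 counts in tumours 3, 5 and 6. Some other endothelial and fibroblast markers did have counts there. Kdr had 49, 1527 and 13 counts in tumours 3, 5 and 6, Pecam1 17, 38 and 6, and Lum 0, 148 and 0. The labels call these tumours primary tumours like the rest. The labels do not say whether the RNA of these 3 came from pieces of tumour or from isolated or cultured cells, and this limits how every stroma-poor value below can be read, the lipid genes included. In bulk RNA, fewer cells of a type and less RNA per cell cannot be told apart.

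**Figure D1:**
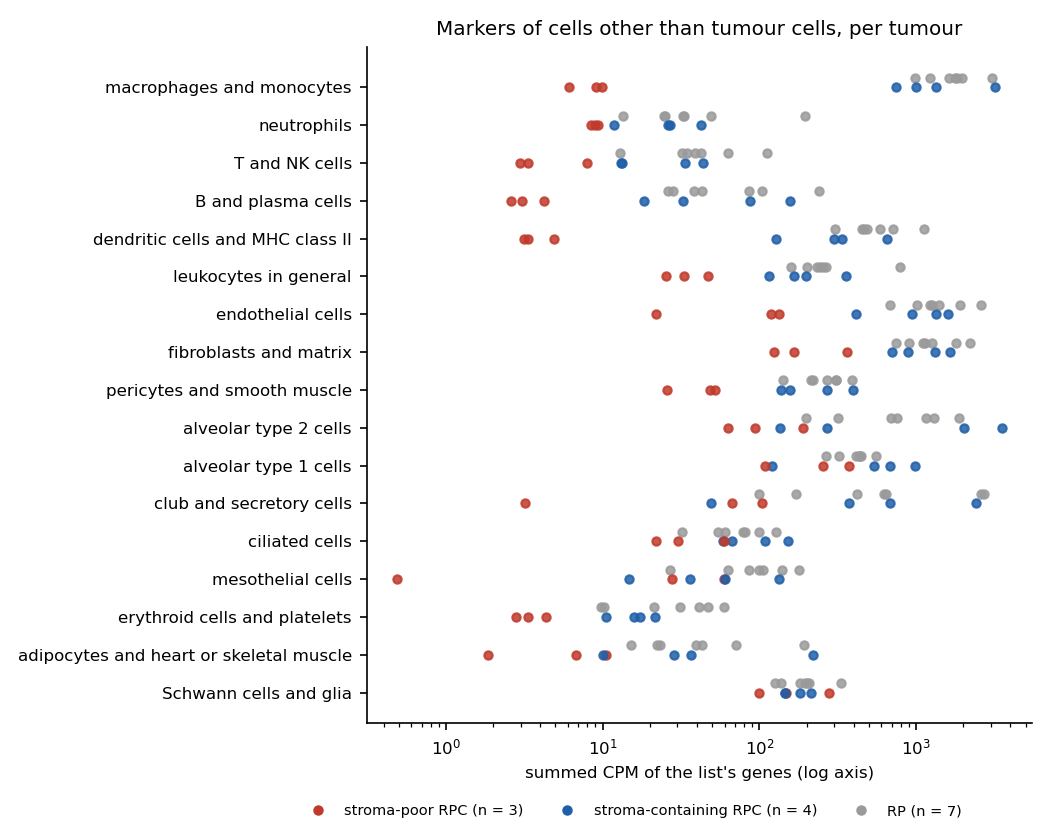
Summed CPM of each marker list (log axis) in the 3 stroma-poor RPC tumours (red), the 4 stroma-containing RPC tumours (blue) and the 7 RP tumours (grey), 1 point per tumour, all scaled over 14 libraries. The macrophage list, Ctss included, sits at 6.14 to 9.88 CPM in the stroma-poor tumours and at 740 to 3200 CPM in the stroma-containing ones, while the points of the Schwann cell list are mixed.

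Besides Ctss, all 18 macrophage and monocyte genes compared were lower in the stroma-poor tumours, and 8 of them were lost. Lost means at most 3 counts in each stroma-poor tumour and at least 5 CPM in each stroma-containing one. The summed level of the list without Ctss was 6.04 to 9.88 CPM against 678 to 2930 CPM, a ratio of means of 0.574%. Lyz2, the lysozyme of macrophages, was at 0.409, 4.06 and 0.977 CPM in the stroma-poor tumours and at 162, 1276, 71.9 and 495 CPM in the stroma-containing ones. Tumour 5 held 74 counts of it and was the highest of the 3, yet far below tumour 4, the lowest of the 4. Csf1r, the receptor for the macrophage growth factor CSF1, had 2, 0 and 0 counts in tumours 3, 5 and 6 and 30.1, 51.9, 38.4 and 20.7 CPM in the others.

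C1qa, C1qb and C1qc encode the subunits of complement C1q, which tissue macrophages make. C1qa was at 0, 0 and 0.0888 CPM in the stroma-poor tumours and 65, 139, 84.4 and 46.8 CPM in the stroma-containing ones. C1qb was at 0.307, 0 and 0 against 59.6, 124, 71.4 and 38.7 CPM, and C1qc at 0, 0.0549 and 0 against 56.2, 113, 79.3 and 40.1 CPM. Each of the 3 genes was thus at 0 in 2 of the 3 stroma-poor tumours and at 38.7 CPM or more in every stroma-containing one.

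The list of dendritic cell and MHC class II genes had 7 of 8 members lower, 4 of them lost. H2-Aa, H2-Ab1 and H2-Eb1 encode chains of the class II molecules that present peptides to helper T cells. H2-Aa was at 0.204, 0 and 0 CPM in the stroma-poor tumours against 83, 209, 45.3 and 95.8 CPM. H2-Ab1 was at 0.102, 0.11 and 0.0888 against 72.9, 182, 31.8 and 92.8 CPM, and H2-Eb1 at 0, 0.0549 and 0.0888 against 74, 158, 30.3 and 79.3 CPM. Cd74, the invariant chain that escorts class II molecules, was at 0.511, 0.165 and 0.0888 CPM against 226, 576, 75 and 347 CPM. Tumour 2 was the highest and tumour 4 the lowest of the stroma-containing tumours for each of these 4 genes.

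Genes of leukocytes in general showed 8 of 10 lower and 4 lost. Ptprc, which encodes CD45, had 3, 0 and 1 counts in tumours 3, 5 and 6 and was at 26.9, 41.7, 9.33 and 20 CPM in the stroma-containing tumours. Cd53, a leukocyte tetraspanin, had 0 counts in all 3 and was at least 67.8-fold lower, against 14.8, 32.6, 9.25 and 10.1 CPM, with 3 counts per library as the limit. Itgb2, the shared chain of the leukocyte integrins, was at 0.102, 0 and 0.0888 against 33.1, 70.4, 13.7 and 20.4 CPM. Coro1a, an actin-binding protein of leukocytes, was not lower by the rule, at 19.9, 28 and 31.5 CPM against 28.9, 51.5, 37.3 and 39.7 CPM, and Lcp1, another, was at 2.96, 0.11 and 14.1 CPM against 45.5, 83.8, 15.2 and 39.4 CPM. The ranges of Coro1a overlapped between tumour 6 and tumour 1, and Lcp1 in tumour 6 came within 0.11 (log2) of tumour 4.

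T-cell RNA was sparse in all 7 tumours. Cd3e, a chain of the T-cell receptor complex, had 0 counts in all 3 stroma-poor tumours and too few in the others to be compared. Of 7 T and NK cell genes compared, 6 were lower, among them Cd4 at 0.409, 0.329 and 0 CPM against 1.53, 7.92, 4.91 and 4.8 CPM. The other, Lck, was not called, at 2.56, 6.86 and 1.51 against 3.49, 7.83, 1.555 and 6.49 CPM. Igj, the joining chain of polymeric antibodies, was at 0.409, 0.384 and 0.266 CPM against 17.7, 139.9, 12.4 and 80.3 CPM, so every stroma-containing tumour held at least 12.4 CPM and no stroma-poor tumour over 0.409. Of 5 neutrophil genes compared, 4 were lower, among them Ltf, lactoferrin, at 0, 0.0549 and 0 CPM against 2.38, 16.1, 0.9 and 10.7 CPM. The other, Cxcr2, was level, at 8.69, 8.34 and 8.35 against 10.2, 8.19, 7.28 and 7.2 CPM.

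Vessel markers were lower with exceptions in single tumours. Of 18 endothelial genes, 14 were lower and 6 had 0 counts in all 3 stroma-poor tumours. Cdh5, the endothelial cadherin, was among the 6 and was at least 211-fold lower, against 63.6, 102, 9.82 and 32.2 CPM. Tie1, an endothelial receptor kinase, was also at 0 and at least 77.7-fold lower. Pecam1, an adhesion molecule of endothelium and leukocytes, was at 1.74, 2.08 and 0.533 CPM against 57.4, 94, 17.1 and 37.6 CPM.

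Against this, Vwf, the clotting factor carrier of endothelium and platelets, was at 109, 1.32 and 8.61 CPM in tumours 3, 5 and 6. The stroma-containing values were 536, 702, 297 and 1283 CPM, so tumour 3 kept a level within 3-fold of tumour 4. Kdr, the receptor VEGFR2, was at 5.01, 83.8 and 1.15 CPM against 24.1, 33.7, 5.73 and 20.5 CPM. Tumour 5, with 1527 counts of Kdr, was above every stroma-containing tumour and above the RP range of 14 to 29.9 CPM, while Cdh5 was at 0 in the same library. Vwf in tumour 3 and Kdr in tumour 5 made up most of the 133 and 119.5 CPM that the endothelial list summed to there, and tumour 6 had 21.8 CPM of the list against 416 to 1602 CPM in stroma-containing tumours.

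Of 20 fibroblast and matrix genes, 12 were lower. Col3a1, a fibrillar collagen of fibroblasts, was at 0.613, 0 and 0 CPM in the stroma-poor tumours and 144, 223, 108 and 77.9 CPM in the stroma-containing ones. Col1a2, a chain of type I collagen, was at 0.613, 0.11 and 0 against 179.6, 139.5, 65.7 and 48.6 CPM. Both collagens were highest in tumour 3 among the stroma-poor tumours, at 6 counts each. Serpinh1, the chaperone that collagen needs to fold, had 0 counts in all 3 and was at least 265-fold lower, against 78.1, 91.2, 15.1 and 76 CPM.

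Eln, which encodes elastin, was expressed in the stroma-poor tumours at 15.3, 81.5 and 12.4 CPM, and tumour 5 overlapped the stroma-containing range of 69.7 to 265 CPM. Lum, a collagen-binding proteoglycan, was at 0, 8.12 and 0 CPM, so tumour 5 held all of its stroma-poor counts, and at 0.425, 1.89, 2.13 and 0.178 CPM in the others. Among pericyte and smooth muscle genes 8 of 10 were lower. Acta2, smooth muscle actin, was at 0.204, 0.11 and 0.0888 against 47.6, 35.5, 15.6 and 17.1 CPM, and Rgs5, a pericyte gene, at 0, 0.0549 and 0.266 against 19.5, 17.9, 24.1 and 8.09 CPM. Beta-s, a haemoglobin beta chain gene of red cells whose reads a near-identical copy may share, had 0 counts in all 3 stroma-poor tumours and 50.4, 41.7, 107 and 91.5 CPM in the others, at least 295-fold more.

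Lung epithelial RNA varied widely among the stroma-containing tumours. Scgb1a1, the secretoglobin of club cells, was at 1.53, 0.549 and 0.355 CPM in the stroma-poor tumours and 6.59, 557, 17.3 and 1845 CPM in the stroma-containing ones. Slc34a2, a phosphate carrier of alveolar type 2 cells, was at 0.102, 0 and 0 against 7.49, 312, 3.11 and 163 CPM, and Sftpd, surfactant protein D, at 0, 0 and 0 against 7.45, 251, 0.327 and 93.2 CPM. Tumours 2 and 7 were high for all 3 genes, and tumour 4 was nearest to the stroma-poor ones for Slc34a2 and Sftpd.

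Sftpc, surfactant protein C, did not follow the division. It was at 10.1, 19.5 and 8.35 CPM in the stroma-poor tumours and 79.6, 1608, 1.64 and 838 CPM in the stroma-containing ones, so tumour 4 was the lowest of the 7. Sftpb, the surfactant protein that type 2 cells make beside it, was at 0.307, 0.0549 and 0.444 against 19.4, 452, 0.245 and 307 CPM, again overlapping through tumour 4. Ager, a marker of alveolar type 1 cells, was at 1.23, 1.26 and 1.86 CPM against 93.1, 404, 8.35 and 163 CPM and did not overlap. The 3 Schwann cell and glial genes compared were not called, and the list's summed level was 99.8 to 277 CPM against 145 to 212 CPM. Mbp, myelin basic protein, carried that list, at 142, 89.2 and 261 against 191, 138, 170.2 and 124 CPM.

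Of 14656 genes compared, 190 were higher (1.3%) and 1374 lower (9.38%). Of the lower genes, 1225 were under 5 CPM in at least 1 stroma-poor tumour and 705 were under 1 CPM in all 3. Without tumour 3, 5 or 6, 357, 290 or 417 were higher. Lost genes, Ctss among them, numbered 63 (0.43%), and 103 without tumour 4. Of the 63, 17 had 0 counts in all 3 stroma-poor tumours, and their summed level was 2.03 to 5.42 CPM against 1448 to 4018 CPM. Of these 63, 62 were also below all 7 RP tumours. Besides the genes named above, the lost genes with the highest level in stroma-containing tumours were Lcn2, an iron-trapping lipocalin of neutrophils and injured epithelium, Gpnmb, a glycoprotein of lysosome-rich macrophages, and Ctsh, cathepsin H. Lcn2 was at 0.204, 0 and 0 CPM against 12.5, 260.3, 21.4 and 38.9, Gpnmb at 0.204, 0 and 0.0888 against 51.1, 212, 7.61 and 58.8, and Ctsh at 0.102, 0.0549 and 0.0888 against 42.6, 159, 25.2 and 59.4 CPM.

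Genes with at least 5 CPM in every stroma-poor tumour are called expressed, and there were 10296. Among them 147 were higher (1.43%) and 149 lower (1.45%), so 49.7% of the called genes were higher. The requirement of 5 CPM in the stroma-poor tumours itself removes lower genes and keeps higher ones, and the split turned over with it: 188 were higher and 351 lower at 1 CPM, and 96 higher and 38 lower at 20 CPM. The split also moved with the scaling, at 47.4% with median-ratio scaling, 40.5% with plain CPM, 39.1% with upper-quartile scaling, and 36.6% with factors taken from genes of at least 5 CPM in every library, which moved the median difference of all genes from 0.003 to -0.11. Over all genes called, the share higher went from 12.1% to 8.94% under that last scaling. The count of higher expressed genes was 277 without tumour 3 and 325 without tumour 6, and that of lower ones was 227, 248, 230, 263 and 241 without tumours 1, 3, 4, 5 and 6. Of the 147 higher genes, 71 were above all of the other 11 tumours, RP included, and of the 149 lower genes 104 were below all 11. Over all genes compared these shares were 2.2% and 8.89%, but the called genes had by their selection already cleared 4 of the 11 tumours. The differences of expressed genes had a Spearman's rho of -0.003 with transcript length and -0.187 with GC content over 10215 genes. The median difference of expressed genes was 0.11, and the list medians below can be read against it. Counts of called genes in the lists below can be read against 1.3% higher and 9.38% lower over all genes compared.

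**Figure D2:**
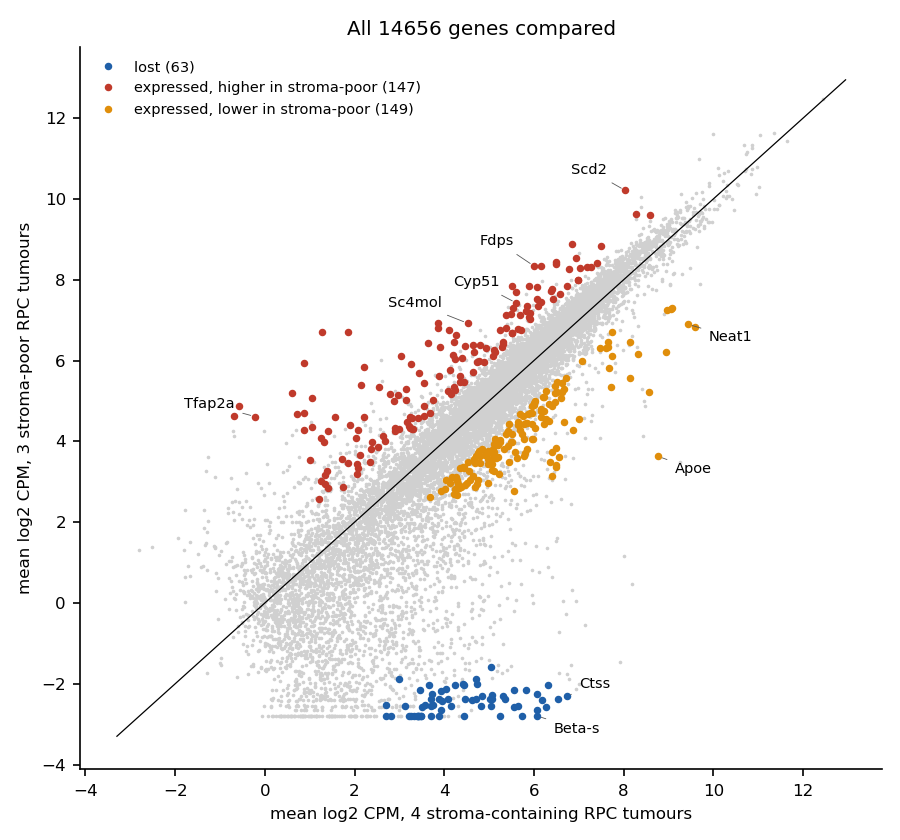
Mean log2 CPM of 14656 genes in the 4 stroma-containing (horizontal axis) and the 3 stroma-poor RPC tumours (vertical axis), 1 point per gene, with the line of equality. The 63 lost genes (blue) lie along the bottom, and the 147 higher (red) and 149 lower (orange) expressed genes lie on both sides of the line.

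Most genes of cholesterol synthesis were higher in the stroma-poor tumours, 13 of 19 by the rule. Of the 20 genes listed, 19 could be compared, and the other, Hmgcs1, was listed at 0 in all 14 libraries. All 19 were expressed and all 19 differences were positive, with a median of 1.25. The least of them, 0.03 for Ebp, was smaller than the shift to the lowest scaling and turned negative there. By the rule 0 were lower and 6 were not called, and the 13 called higher stand beside 1.43% higher among all expressed genes. The 13 include Cyp51 and Sc4mol, which came named with the division as its markers. The list was itself chosen with earlier results of these data known, so its counts are a description and no separate support. Summed over the list, the level was 1790 to 2660 CPM in the stroma-poor tumours, 750 to 913 CPM in the stroma-containing ones and 726 to 1270 CPM in the RP tumours. For 10 of the 19 genes, Cyp51 and Sc4mol again among them, each stroma-poor tumour was above all other 11 tumours, against 2.2% of all genes compared.

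At the head of the pathway, Acat2, which joins the first acetyl-CoA units, was not called, at 68.5, 169 and 52.3 against 37.5, 29.5, 68.4 and 21.6 CPM, because tumour 4 overlapped the stroma-poor tumours. The mevalonate kinase Mvk was at 22.7, 33.6 and 39.2 against 11.1, 16, 20.4 and 16 CPM without overlap, and Pmvk, the kinase after it, overlapped at 77.5, 45.3 and 49 against 26.8, 39.2, 63 and 39.3 CPM.

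The isoprenoid steps came next. Idi1, the isomerase that makes the active isoprene unit, was at 123, 227 and 318 CPM against 42, 39.8, 68.6 and 47.7 CPM, a difference of 2.09 (SD 0.70 over 3 and 0.35 over 4). Fdps, which makes farnesyl diphosphate, was at 338, 373 and 273 CPM against 61.9, 49.8, 73.6 and 72.3 CPM, a difference of 2.35 (SD 0.23 over 3 and 0.26 over 4) or 5.09-fold. The RP tumours had 40, 79.2 and 117 CPM of Fdps at the lowest, median and highest. The lowest stroma-poor value was thus more than 2-fold above the highest of the other 11.

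Squalene synthesis and the sterol-making enzymes after it follow. Fdft1, squalene synthase, was at 122, 242 and 92.9 against 50.9, 55.3, 65.1 and 39.3 CPM and Sqle, squalene epoxidase, at 142, 245 and 229 against 71.1, 103, 91.3 and 124 CPM. Sqle did not overlap in RPC tumours but its RP range, 101 to 201 CPM, reached into the stroma-poor values. Lss, which closes the sterol rings, was at 59.4, 97.7 and 87.3 against 31.9, 28.4, 27.1 and 35.1 CPM.

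Cyp51 and Sc4mol remove methyl groups from lanosterol and the sterols after it. Cyp51 was at 150.3, 206 and 166 CPM in the stroma-poor tumours and 45.7, 58.3, 44.7 and 45.9 CPM in the stroma-containing ones, a difference of 1.83 (SD 0.23 over 3 and 0.18 over 4). Sc4mol was at 107, 192 and 86.9 against 22.3, 20.2, 20.1 and 29.9 CPM, a difference of 2.40 (SD 0.59 over 3 and 0.27 over 4). The RP tumours had 33, 41 and 67.3 CPM of Cyp51 and 15, 19.7 and 31 CPM of Sc4mol at the lowest, median and highest, all under the stroma-poor values. Nsdhl, which works with Sc4mol, was at 51.3, 81.5 and 67 against 16.9, 14.8, 23.5 and 20.4 CPM. Among the last steps, Dhcr7 was at 58.3, 80.4 and 53.5 against 23.9, 26.4, 35.8 and 24 CPM, while Ebp overlapped at 33.9, 35.8 and 35.5 against 40.1, 50.9, 24.7 and 27.8 CPM.

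**Figure D3:**
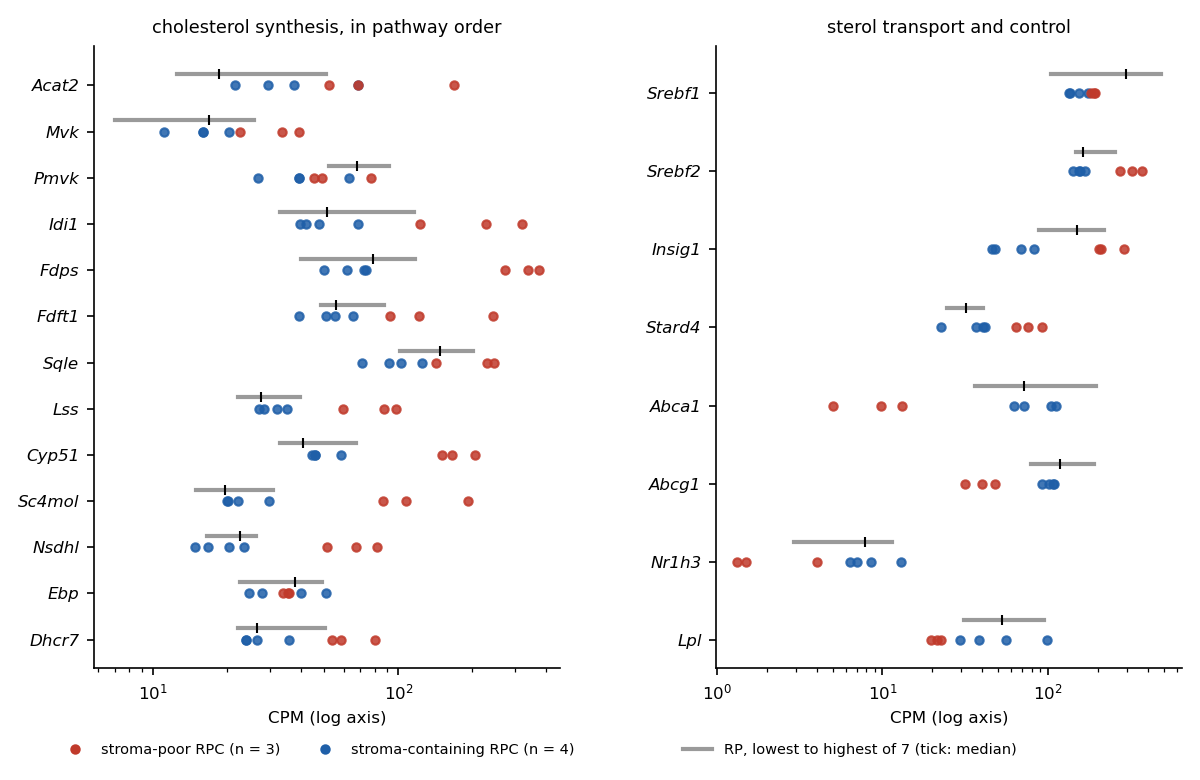
CPM (log axis) of 13 cholesterol synthesis genes (left) and 8 genes of sterol transport and control (right) described in the text, in stroma-poor (red) and stroma-containing (blue) RPC tumours, 1 point per tumour, with the range and median of the 7 RP tumours in grey. Fdps, Cyp51 and Sc4mol show a clear space between the red points and all others, while Abca1 shows the reverse.

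Since these genes differed together, the bases just before their starts are shown. The sequences are the 150 bases before the RefSeq start (GRCm38.p6) of the gene's strand, 5′ to 3′, with CCAAT, on either strand, in capitals (ATTGG is CCAAT on the other strand). Cyp51, Sc4mol and Idi1 are shown as members with wide differences, and Acat2 as the member that held no CCAAT.
Cyp51 (chr5:4104698-4104847, minus strand): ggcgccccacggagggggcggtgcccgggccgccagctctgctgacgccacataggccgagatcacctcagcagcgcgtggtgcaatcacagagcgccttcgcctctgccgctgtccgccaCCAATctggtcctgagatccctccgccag
Sc4mol, named Msmo1 in RefSeq (chr8:64733579-64733728, minus strand): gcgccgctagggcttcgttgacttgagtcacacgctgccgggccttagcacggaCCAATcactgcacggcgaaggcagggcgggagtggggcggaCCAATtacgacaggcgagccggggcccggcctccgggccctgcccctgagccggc
Idi1 (chr13:8885456-8885605, plus strand): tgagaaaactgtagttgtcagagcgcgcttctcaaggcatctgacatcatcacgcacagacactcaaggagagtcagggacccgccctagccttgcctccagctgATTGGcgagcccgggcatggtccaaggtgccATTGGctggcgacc
Acat2 (chr17:12960726-12960875, minus strand): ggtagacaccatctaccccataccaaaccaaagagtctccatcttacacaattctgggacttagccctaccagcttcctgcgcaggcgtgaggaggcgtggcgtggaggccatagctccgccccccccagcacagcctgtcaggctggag
CCAAT is the core of the box bound by NF-Y, a factor known to act beside SREBP2 at sterol promoters. Of the 19 genes, 14 were matched to the RefSeq promoter table, and 13 of the 14 held CCAAT on either strand within 150 bases of a start. Counted in the same way, per gene with any of its windows, 27.7% of 27025 genes of the table held it, and 24.5% of all 32851 windows did. Ebp and Pmvk, which were not called higher, held CCAAT too, so it did not separate called from uncalled members of the list. Of the 17 genes of sterol uptake, efflux and control, 10 were matched and 5 held it. TCACNCCAC, the core letters of a sterol regulatory element, was in 0 of the 14 and 0 of the 10 and in 0.639% of all windows and 0.755% of all genes. A match of letters is a description of the window and does not show that a factor binds there.

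Genes of sterol transport and control split by role. Of 17 compared, 4 were higher and 5 lower. Insig1, the protein that holds SREBP2 back when sterol is plentiful and is itself turned on by it, was at 209, 289 and 202 against 48, 45.6, 68.8 and 82.7 CPM, with RP tumours at 88.7 to 217 CPM. Srebf2, which encodes SREBP2, was at 272, 371 and 323 against 154, 142, 166 and 156 CPM and above all 11 other tumours, as was Stard4, a carrier of sterol between membranes, at 63.8, 91.5 and 75.8 against 40.3, 36.6, 22.4 and 41.6 CPM. Srebf1, the related gene for fatty acid control, differed by 0.34.

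Sterol efflux genes were on the other side. Abca1, the pump that loads cholesterol onto apolipoproteins, was at 9.81, 13.1 and 5.06 CPM in the stroma-poor tumours and 71.3, 112, 104 and 62.4 CPM in the stroma-containing ones, a difference of -3.27 (SD 0.69 over 3 and 0.41 over 4). Abcg1, a second efflux pump, was at 47.6, 39.8 and 31.4 against 101, 107, 91.7 and 109 CPM. Nr1h3, the liver X receptor alpha, was at 1.33, 4.01 and 1.51 against 7.02, 12.9, 6.38 and 8.53 CPM and Lpl, lipoprotein lipase, at 22.6, 21.4 and 19.7 against 55.6, 98.3, 38.5 and 29.5 CPM. Apoe, the apolipoprotein that macrophages and other cells release, was at 15.5, 14.2 and 8.26 against 262, 848, 636 and 261 CPM, 39.7-fold lower. Macrophages are a known source of these 5 transcripts, the macrophage list without Ctss was at 0.574% of its stroma-containing level in the same tumours, and its part in these differences was not tested.

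Fatty acid genes followed the synthesis enzymes in part. Of 15 compared, 12 differences were positive, 5 genes were higher and 1 lower, with a median of 0.65. Scd2, a desaturase that makes monounsaturated fatty acids, was at 817, 1826 and 1124 CPM in the stroma-poor tumours and 189.7, 289, 282 and 301 CPM in the stroma-containing ones, a difference of 2.19 (SD 0.58 over 3 and 0.31 over 4). Its RP range was 181 to 420.3 CPM, under every stroma-poor value. Its neighbour Scd1 went the other way without a call, at 3.99, 104 and 59.1 against 48.3, 993, 68.2 and 334 CPM. Scd1 was high in tumours 2 and 7, which were also the highest for Sftpb, and type 2 cells are a known source of Scd1. The part of those cells in the Scd1 values was not tested.

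Acsl3, which activates long-chain fatty acids, was at 145, 176 and 172 against 44.2, 56.7, 79 and 54.6 CPM. The desaturases of polyunsaturated fatty acids, Fads1 and Fads2, were at 289.6, 428 and 314 against 119.7, 180.3, 209.5 and 178 CPM and at 96.6, 225 and 152 against 40.6, 59.8, 75.2 and 57.1 CPM. Elovl6, an elongase, was at 100.4, 156 and 83.2 against 43.2, 39.3, 67.3 and 53.6 CPM. Fasn, the fatty acid synthase, was at 481, 967 and 755 against 476, 389, 399 and 296 CPM, where tumour 3 was all but level with tumour 1. Mlxipl, a glucose-sensing factor that also drives lipid genes, was lower, at 0.511, 2.69 and 10.7 against 54, 33.1, 31.2 and 14.5 CPM.

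Beyond lipid genes, the expressed genes with the widest space above the stroma-containing tumours were a mixed group. Tfap2a, a transcription factor of neural crest and epithelium, was at 26.8, 65 and 8.26 CPM in tumours 3, 5 and 6 and at 0.808, 0.9, 0.655 and 0.533 CPM in the others, 46.1-fold higher. The RP tumours had 0.464, 0.745 and 2.13 CPM of it at the lowest, median and highest, so its RNA was near the floor in all other 11. Dio2, the deiodinase that activates thyroid hormone, was at 27.4, 52.7 and 26.2 against 3.66, 3.24, 1.15 and 0.978 CPM, and Epha7, an ephrin receptor, at 27.5, 26.3 and 66.3 against 0.468, 6.48, 2.04 and 0.444 CPM. Both were above all RP tumours, whose highest values were 1.96 CPM for Dio2 and 1.19 CPM for Epha7.

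Hs6st2, which sulphates heparan chains, was at 21, 23.2 and 17.5 against 0.638, 3.24, 4.17 and 1.51 CPM, and Pcdh17, a protocadherin of neurons, at 27.8, 22.4 and 22.7 against 3.79, 8.73, 2.13 and 5.78 CPM. The highest RP tumour reached 16.2 CPM of Hs6st2 and 38.6 CPM of Pcdh17, so the second was not outside the range of the genotype without Crebbp deletion. Id2, an inhibitor of differentiation factors, was at 268, 348 and 374 against 91.6, 55.6, 55.7 and 92.3 CPM and Stat5a, a cytokine signal transducer, at 66, 212 and 130.5 against 23.4, 11.4, 13.2 and 12.2 CPM. Both were above all 11 other tumours.

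Neuroendocrine factors were expressed in both groups. Of 14 neuroendocrine transcription factors compared, 2 were higher and 0 lower, with a median of 0.50. Insm1, a zinc finger factor of neuroendocrine cells, was at 805, 572 and 1043 CPM in the stroma-poor tumours and 402, 389, 364 and 377 CPM in the stroma-containing ones, and Neurod1, which marks another subtype, at 12, 11.2 and 35.3 against 1.7, 6.3, 6.46 and 0.267 CPM. The RP tumours reached 820.2 CPM of Insm1 and 46 CPM of Neurod1, so neither was outside their range. Prox1, a homeobox factor, was at 112, 185 and 0.0888 CPM, so tumour 6 all but lacked it, and at 199, 166, 191 and 157 CPM in the others. Nfib, a factor often amplified in this cancer, was at 2350, 1803 and 279 against 683, 219, 366 and 229 CPM, highest in tumours 3 and 5, with an RP range of 54.1 to 243 CPM.

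Of 20 neuroendocrine secretory genes 0 were higher and 1 lower, with a median of 0.39, against 1.3% higher and 9.38% lower over all genes compared. The lower one, Th, the first enzyme of catecholamine synthesis, was at 0.102, 0.274 and 0.178 CPM against 10, 2.79, 166 and 0.444 CPM. Ddc, the decarboxylase of amine synthesis, was at 758, 1022 and 767 against 1027, 1736, 1075 and 2073 CPM, where tumour 5 all but touched tumour 1. Uchl1, a neuronal hydrolase, was at 691, 841 and 669.5 against 393, 421, 699 and 419 CPM with tumour 4 among the stroma-poor values. Of 19 neuronal genes 2 were higher, Stmn2, a microtubule regulator of growing axons, at 57.4, 223 and 109 against 2.55, 33.1, 34.5 and 13.9 CPM, and Dpysl3, a growth cone protein, at 57.8, 57.6 and 195 against 13.5, 12.5, 16.8 and 8.27 CPM. Both were above all 11 other tumours. Stx1a, a synaptic fusion protein, was at 0.716, 2.31 and 62.7 CPM, near absent in tumours 3 and 5 only, against 38.2, 45, 65.8 and 49.1 CPM.

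Genes of growth and energy had small positive differences. All 22 cell cycle genes had a positive difference, with a median of 0.54 that stayed at 0.42 or more under every scaling, and for 14 the ranges did not overlap, against 8.02% of all genes. The list summed to 5940 to 7020 CPM in the stroma-poor and 4470 to 5220 CPM in the stroma-containing tumours. The RP tumours spanned 3660 to 7670 CPM, so the stroma-poor sums were within their range. Of the 22 genes, 2 were above all 11 other tumours. By the rule of a 2-fold difference 1 was higher, Rrm2, a subunit of the enzyme that makes deoxynucleotides, at 247, 393 and 331 CPM against 193, 133, 181 and 92.9 CPM. Mki67, the proliferation marker Ki-67, overlapped at 692, 981 and 1015 against 622, 647, 707 and 786 CPM, and Bub1, a spindle checkpoint kinase, did not at 127, 95.5 and 141 against 83.6, 57, 57.4 and 65.6 CPM. All 19 oxidative phosphorylation genes also had a positive difference, with a median of 0.41, 0.29 at the lowest over the scalings, where Sdha alone turned negative, and 0 called. Cox5a, a subunit of cytochrome oxidase, was the widest of the list at 155, 184 and 168 against 88.9, 88.2, 109 and 69.9 CPM.

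Of 20 genes of amino acid supply and the ATF4 response 18 had a positive difference, with a median of 0.50 and 0 called, and 1 of the 18, Nupr1, turned negative with the lowest scaling. Psat1, an enzyme of serine synthesis, was at 189, 193 and 153 against 107, 120.4, 101 and 57.3 CPM and above all 11 other tumours. The 20 cytosolic ribosomal protein genes had a median of -0.24 and 0 called. One of them, Rps6, was at 13570, 3211 and 696 CPM in tumours 3, 5 and 6 and at 1785, 869, 1017 and 685 CPM in the others, so tumours 3 and 5 stood above the rest. Reads of Rps6 may be shared with its pseudogene copies. Of 23 glycolysis and hypoxia genes 0 were called.

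**Figure D4:**
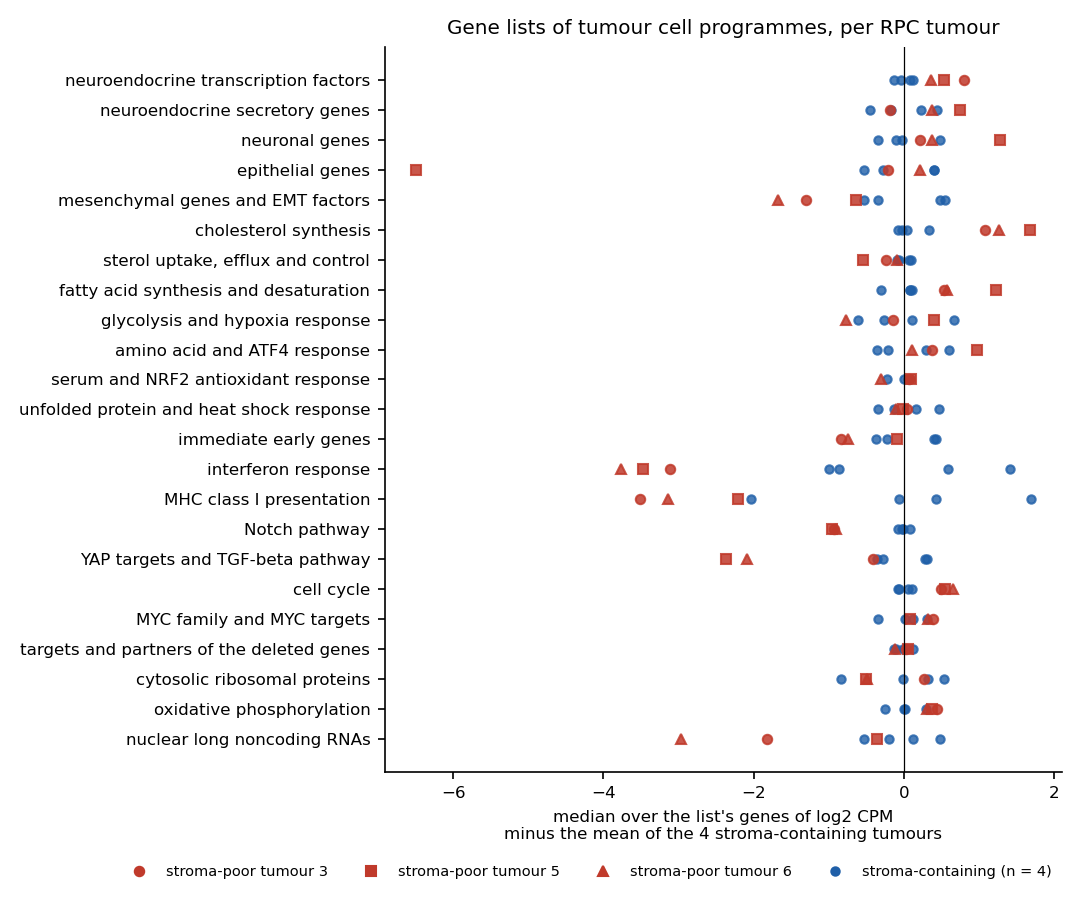
For each gene list, the median over its genes of log2 CPM minus the mean of the 4 stroma-containing tumours (horizontal axis), 1 point per RPC tumour; the 3 stroma-poor tumours are red with a symbol each. Cholesterol synthesis stands at 1.08 to 1.68 in the stroma-poor tumours, interferon response at -3.76 to -3.11, Notch pathway at -0.96 to -0.90, and epithelial genes at -6.50 in tumour 5 only.

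The expressed genes with the widest space below the stroma-containing tumours were also a mixed group. Hspg2, the basement membrane proteoglycan perlecan, was at 7.67, 6.86 and 5.59 CPM in the stroma-poor tumours and 81.1, 81.4, 28.3 and 25.9 CPM in the stroma-containing ones. Timp3, an inhibitor of matrix proteases, was at 5.62, 16.3 and 12.8 against 102, 168, 48.6 and 80.3 CPM and Tns1, an adhesion protein, at 6.85, 16 and 12.3 against 51.2, 150.2, 58.7 and 97.7 CPM. Ctsd, cathepsin D of lysosomes, was at 175, 176 and 126 against 392, 1130, 370.3 and 531 CPM. Each of the 4 was below all 11 other tumours. Fibroblasts, vessels and macrophages express them too, and the share of those cells in the differences was not tested.

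Txnip, an inhibitor of thioredoxin and glucose uptake, was at 152, 31.3 and 84.3 against 538, 648, 338 and 492 CPM, and Sik1, a kinase induced by cyclic AMP signalling, at 11.2, 14.7 and 10.7 against 182, 112, 35.8 and 106 CPM. Kremen1, a receptor that restrains Wnt signalling, was at 19.1, 14.2 and 25.9 against 93, 216, 67.4 and 137 CPM. Sat1, which acetylates polyamines, was at 31.6, 28.8 and 12.6 against 73.9, 111, 68.9 and 73.9 CPM, and Ly6e, an interferon-inducible surface protein, at 63.3, 23.4 and 45.6 against 186, 405, 137 and 193 CPM. These 5 were below all RP tumours as well. Neat1, the noncoding RNA that builds paraspeckles, was at 196, 99.1 and 86.8 against 527, 969, 606 and 753 CPM, but its lowest RP tumour had 128 CPM, within the stroma-poor values.

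Interferon response and MHC class I genes were low together in the stroma-poor tumours. All 25 interferon response genes compared had a negative difference, 16 were lower and the median was -3.26. Ifi44, an interferon-induced gene, was at 0.409, 0 and 0.178 CPM against 6.13, 40.4, 6.55 and 21 CPM, and Oasl2, a sensor related to the antiviral 2′-5′ oligoadenylate synthetases, at 0.92, 0.0549 and 0.444 against 7.62, 65, 17 and 33.9 CPM. Stat2, which carries the signal from interferon receptors, was expressed in all tumours and overlapped, at 36.5, 49.3 and 37.8 against 31.2, 75, 48 and 64.8 CPM. Tumours 1 and 4 were the lower of the stroma-containing tumours for these 3 genes.

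For MHC class I, the molecules by which all nucleated cells show peptides to killer T cells, 8 of 14 genes were lower with a median of -3.40. Over all genes compared, 9.38% were lower. B2m, the light chain shared by all class I molecules, was at 34.4, 34 and 44.9 CPM in the stroma-poor tumours and 363, 1323, 83.8 and 504 CPM in the stroma-containing ones. It was expressed in every tumour, and the RP tumours had 270.4, 540.3 and 1021 CPM at the lowest, median and highest. The heavy chain gene H2-K1 was at 28.7, 39.7 and 4.53 against 346, 1378, 83.3 and 358 CPM, lowest in tumour 6. Tap1, the peptide pump, was at 0.307, 3.07 and 1.51 against 43.2, 140.2, 6.96 and 51.7 CPM, Psmb8, a subunit of the immunoproteasome, at 0.102, 3.4 and 1.42 against 19.9, 105, 6.22 and 44.5 CPM, and Nlrc5, the activator of class I genes, at 1.53, 1.04 and 3.02 against 68.2, 98.2, 4.42 and 37 CPM. Tumour 4 was the lowest of the stroma-containing tumours for all 5 genes. Pdia3, a chaperone of class I loading used by all secretory cells, was level at 531, 439 and 449 against 426, 586, 389.9 and 492 CPM. Leukocytes and endothelium express class I strongly, and what part their missing RNA had in these differences was not tested. The macrophage list without Ctss summed to 6.04 to 9.88 CPM in the stroma-poor and 678 to 2930 CPM in the stroma-containing tumours. Reads of class I heavy chain genes may be shared among near-identical members.

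Notch pathway genes had 5 of 17 lower, 16 negative differences and a median of -0.99, where 9.38% of all genes compared were lower. Notch signalling between neighbouring cells opposes the neuroendocrine state in this cancer. Notch3, a receptor of mural cells, was at 0.613, 0.22 and 4.79 against 12.8, 12.2, 12.7 and 17.4 CPM and Notch4, an endothelial receptor, at 0.818, 2.69 and 3.02 against 38.1, 28.8, 7.94 and 15.6 CPM. Notch1 was at 9.51, 1.43 and 8.35 against 19.5, 31.8, 13.4 and 18.5 CPM and Notch2, not called, at 14.6, 18.7 and 22.6 against 33.8, 28.5, 26.4 and 24.1 CPM. Rest, a repressor of neuronal genes, was at 4.19, 0.768 and 0.355 against 6.38, 12, 6.71 and 6.75 CPM, but the RP tumours had 0.706, 1.37 and 4.39 CPM, as low as the stroma-poor ones. Hes6, an inhibitor of Notch targets, overlapped at 297, 201 and 197 against 274, 309, 296 and 192 CPM. The pericyte list summed to 25.7 to 51.9 CPM in the stroma-poor and 137 to 397 CPM in the stroma-containing tumours, and its part in the Notch values was not tested.

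The stroma-poor tumours differed from one another in epithelial genes. Tumour 5 had almost no RNA of them: the list's median was -6.50 in tumour 5 against -0.22 in tumour 3 and 0.21 in tumour 6. Cdh1, the epithelial cadherin, was at 216, 0.658 and 342 CPM in tumours 3, 5 and 6 and at 499.6, 242, 160.3 and 709.6 CPM in the stroma-containing ones. Krt8, a keratin, was at 255, 0.22 and 275 against 466, 321, 204 and 538 CPM, and Epcam, an epithelial adhesion molecule, at 348, 4.12 and 348 against 434, 223, 249 and 416 CPM. Cldn3 and Cldn7, claudins of tight junctions, were low in tumour 3 too, at 1.33, 0.933 and 98.8 CPM and 5.11, 0.494 and 79.3 CPM. Of 22 epithelial genes, 2 were called lower, a share close to the 9.38% of all genes compared. Among the 2 was Cldn4, a further claudin, at 0.102, 0.0549 and 0.178 against 11.3, 8.28, 1.55 and 3.91 CPM. Zeb1, a repressor of epithelial genes, was highest in tumour 5, at 37.1, 156 and 17.6 CPM against 46.5, 68.5, 79.9 and 40.5 CPM.

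Mesenchymal and TGF-beta genes had mostly negative differences, 12 of 15 and 13 of 19. Of the 15 mesenchymal genes 1 was higher and 4 lower, with a median of -1.39. Sparc, a collagen-binding matrix protein, was at 9.61, 1.81 and 0.444 against 379.9, 618, 103 and 184 CPM and Tgfbi, a matrix protein induced by TGF-beta, at 0.102, 0.22 and 0.533 against 40.7, 52.1, 13.5 and 22.3 CPM. Vim, the intermediate filament vimentin, was not called at 28.4, 100.3 and 49 against 180.3, 243, 49.6 and 65.7 CPM. Of the 19 genes of YAP targets and the TGF-beta pathway 2 were higher and 5 lower. Tgfbr2, the TGF-beta receptor, was at 1.64, 0.713 and 0.444 against 29.6, 81.3, 18.9 and 41.9 CPM and the receptor kinase Axl at 5.83, 0 and 0.0888 against 32.4, 55.3, 34.3 and 21 CPM. In tumours 5 and 6 Axl was thus at or near 0, while tumour 3 held 5.83 CPM. The fibroblast list summed to 19.1%, the pericyte list to 17.4% and the endothelial list to 8.51% of their stroma-containing level, and the part of those cells in these values was not tested.

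Among 20 immediate early genes 4 were lower, against 9.38% of all genes compared. Klf2, a factor of endothelium and resting lymphocytes, was at 0.716, 0.823 and 0.355 against 11.4, 18.5, 4.5 and 17.1 CPM, and Ctgf, a matrix protein induced by YAP, at 5.42, 5.98 and 0.178 against 85.1, 73.2, 10.5 and 20.6 CPM. Among 9 nuclear noncoding RNAs 4 were lower, Meg3 and Rian of the same imprinted locus with them. Meg3 was at 0.102, 0.165 and 0.178 CPM against 2.6, 45.2, 5.16 and 3.56 CPM, and Rian at 0.102, 0 and 0.178 against 2.34, 27, 3.19 and 2.67 CPM. Tumour 2 was the highest for both, and Malat1, another nuclear RNA, overlapped at 589.9, 729 and 436 against 349, 494, 572 and 649.7 CPM.

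The deleted genes and the MYC family were read in the same tumours. Crebbp was at 64.2, 70.4 and 64.3 CPM in the stroma-poor tumours and 56.1, 64.5, 67.9 and 60.8 CPM in the stroma-containing ones. The RP tumours had 60.4, 70.8 and 98.4 CPM at the lowest, median and highest. Which exons were deleted is not in the labels, and a count over the whole gene also takes reads of the exons that remain, so these values do not check the genotype. Rb1 overlapped too, at 133, 134 and 133 against 107, 123, 173 and 88.8 CPM. Trp53 did not overlap, at 15, 15.9 and 12.3 against 33.3, 23.8, 28.9 and 19.8 CPM, a difference of -0.85 (SD 0.19 over 3 and 0.33 over 4), below the 2-fold rule, and all 3 stroma-poor values were below the RP range of 20.3 to 34.9 CPM. Ep300, the paralog of Crebbp, overlapped at 110.1, 165 and 178 against 153, 168, 144 and 188 CPM. Mycl1, the MYC family member of this cancer, split both groups, at 2804, 318 and 6187 against 5696, 1371, 4376 and 494 CPM, low in stroma-poor tumour 5 and stroma-containing tumour 7. Its relatives Myc, at 26.5, 50.4 and 9.5 against 9.32, 12.7, 8.67 and 14.1 CPM, and Mycn, at 14.2, 33.8 and 5.59 against 14, 5.22, 13.3 and 5.07 CPM, were highest in tumour 5. Of 17 genes of the MYC family and its targets 0 were called, with a median of 0.23.

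The 7 RP tumours, which the division did not use, allow a test of which genes vary with Ctss where no tumour lacked it. Their Ctss spanned 6.36 to 7.92 on the log2 CPM scale, a narrower range than in RPC tumours. Of 5 genes set against Ctss, Lyz2 and Pecam1 passed an adjusted p of 0.05 by Pearson's r and none passed by Spearman's rho. For Lyz2 Pearson's r was 0.893 (exact permutation test over all pairings, two-sided, p = 0.00794, adjusted over 5 relations 0.0397) and Spearman's rho 0.893 (exact permutation p = 0.0123, adjusted 0.0615), n = 7. For Pecam1 Pearson's r was 0.839 (exact permutation p = 0.0165, adjusted 0.0412) and Spearman's rho 0.821 (exact permutation p = 0.0341, adjusted 0.0852).

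Neither relation passed without the 2 tumours farthest from the median Ctss, RP tumours 3 and 7. Without them, r was 0.786 for Lyz2 (exact permutation p = 0.15) and 0.485 for Pecam1 (exact permutation p = 0.467), over 5 tumours, so the coefficient of Pecam1 rested on those 2 tumours while that of Lyz2 changed less. Col3a1 had an r of 0.243 (exact permutation p = 0.609, adjusted 0.609) and a rho of 0.643 (exact permutation p = 0.139, adjusted 0.232). Cyp51 had an r of -0.631 (exact permutation p = 0.128, adjusted 0.213) and a rho of -0.393 (exact permutation p = 0.396, adjusted 0.495). Sc4mol had an r of -0.427 (exact permutation p = 0.337, adjusted 0.421) and a rho of -0.214 (exact permutation p = 0.662, adjusted 0.662). Without the 2 tumours these last 2 values were 0.074 and 0.088, so the negative sign also rested on them.

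**Figure D5:**
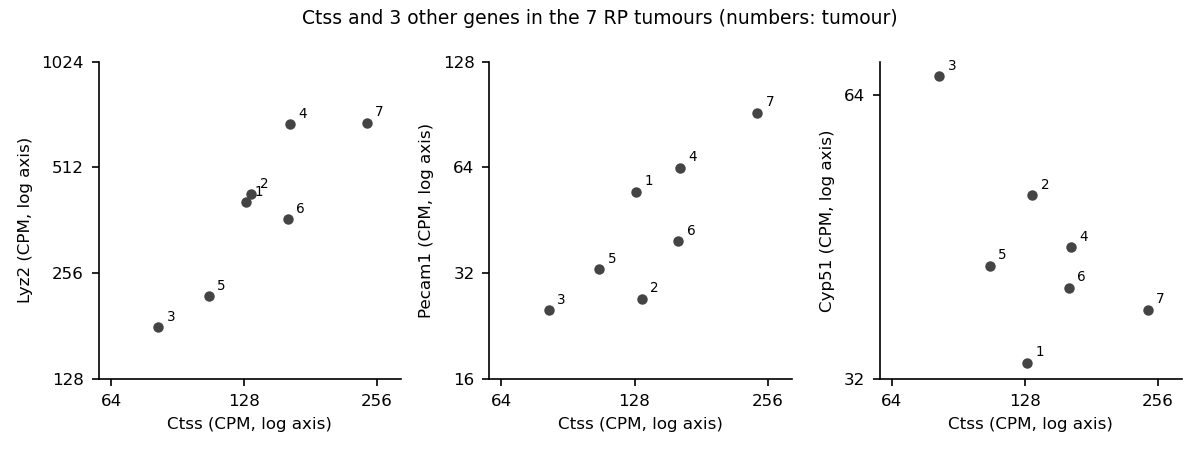
Lyz2, Pecam1 and Cyp51 against Ctss in the 7 RP tumours (CPM on log axes, numbered by tumour), 1 point per tumour. Tumours 3 and 7 hold the ends of the Ctss range, at 81.9 and 242 CPM.

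Across all genes, a slope on log2 Ctss was fitted in the RP tumours with edgeR's quasi-likelihood test, and 0 of 13324 genes passed a Benjamini-Hochberg adjusted p of 0.05 (0% called). The lowest adjusted p was 0.273, and 735 genes had a positive and 587 a negative slope at an unadjusted p under 0.05. DESeq2, run as an alternative, called 231, and edgeR called 1 without RP tumour 7. The 5 genes with the smallest p and a positive slope were Iigp1, Ccl5, Sp110, Slc34a2 and Cxcl9. Iigp1 and Sp110 are interferon-inducible, Ccl5 and Cxcl9 are chemokines of T-cell attraction, and Slc34a2 belongs to alveolar type 2 cells. Iigp1 was at 6.43, 18.2, 2.90, 23.6, 7.42, 19.3 and 63.7 CPM in RP tumours 1 to 7, lowest in tumour 3 and highest in tumour 7. The 5 with a negative slope were Nkain1, Bcl7a, Hhip, Rbfox1 and Ncan. Hhip, a decoy receptor for hedgehog ligands, was at 142 CPM in RP tumour 3, which had the lowest Ctss. It was at 1.30 to 10.5 CPM in the others, lowest in tumour 7, which had the highest Ctss.

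The genes called within RPC tumours had these slopes in RP tumours. Of the 63 lost genes 61 could be fitted, and 57 had a positive slope with a median of 1.05, where 48.6% of all genes did and the median was -0.02. Of expressed genes called lower, 113 of 148 had a positive slope, with a median of 0.36. Expressed genes called higher had a negative slope in 66 of 113, with a median of -0.17. All 25 interferon response genes and all 14 MHC class I genes had a positive slope in RP tumours, with medians of 1.10 and 0.99. Of the 19 cholesterol synthesis genes 5 had a positive slope and the median was -0.32, and 1 of them had an unadjusted p under 0.05. Since no gene passed in edgeR, and genes of 1 library vary together, these counts are a description of the RP tumours.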

How the data were processed

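Poly(A) RNA of 14 mouse tumours, 7 RP and 7 RPC, was sequenced. Read counts per gene, 1 deposited file per tumour, were made by the authors with bcl2fastq 1.8.2, TopHat2 2.0.12 and HTSeq 0.6.1 on mm9, per the submitters' processing notes. Whether counting used strand, and which annotation, is not given in the sources used here, so antisense and overlapping genes cannot be told apart. The 5 rows that name no gene were left out of library sizes, among them reads outside genes (15.1% to 20.5% of a file) and reads with no unique place (8.44% to 11.2%).

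The computation used R 4.3.3 and edgeR 4.0.16. Genes were kept by filterByExpr (minimum count 10, total 15), scaled by TMM, and differences taken on log2 CPM with a prior count of 2. Measured Ctss chose the groups, so the contrast has no test. The RP slope used edgeR's quasi-likelihood test with Benjamini-Hochberg adjustment, tested on simulated data, with DESeq2 1.42.0 as an alternative. Its p-values, and those of the relations, measure the spread between tumours that no label ties to separate mice.

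The members and the 40 gene lists were chosen with earlier results of these data known. Named by rule were the marker, deleted and MYC genes, the 12 lost genes with the highest level, the 12 expressed genes in each direction with the widest gap whose higher group averaged 10 CPM or more, up to 4 members of a list (2 by difference, 2 by level), and 5 slope genes in each direction. Predicted genes were not named. All others, such as Insig1, Idi1, Kdr, Lum, H2-K1, Nlrc5, Zeb1 and Epcam, were chosen after their values were seen. Alternatives were other scalings, thresholds, prior counts and filters, and leaving out each tumour. Lost genes at 0.3 CPM were added after seeing the data. Some genes that the rule or the lists hold are not reported here.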

Additional observations from a re-analysis of the deposited data

Results flagged for a closer look

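In 8 of 88 pairs of a named gene and a group, over 44 genes, the highest or lowest tumour stood far from the next by Dixon's test. Chance flags about 1 in 20 pairs.

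Cyp51 was at 58.3 CPM in RPC tumour 2, and the next stroma-containing tumour had 45.9 CPM. Scd2 was at 190 CPM in RPC tumour 1, the lowest of the stroma-containing tumours, where the next had 282 CPM. Both values stayed below those of all 3 stroma-poor tumours. Serpinh1 was at 15.1 CPM in RPC tumour 4, and the next stroma-containing tumour had 76 CPM. Sat1 was at 111 CPM in RPC tumour 2, and the next had 73.9 CPM.

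In the RP tumours, Mycl1 was at 12.6 CPM in tumour 2 against 87.8 CPM in the next. Id2 was at 19.8 CPM in RP tumour 5 against 65.1 CPM in the next, and Stat5a at 5.91 CPM in RP tumour 3 against 12.5 CPM. Txnip was at 1700 CPM in RP tumour 1, and the next highest tumour had 488 CPM.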

How the results depend on the processing

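With a minimum difference of 2 (log2), 76 genes were higher. Lost genes numbered 155 at 2 CPM and 28 at 10 CPM in each stroma-containing tumour. Expressed genes called lower numbered 351 at 1 CPM and 38 at 20 CPM in each stroma-poor tumour, and those called higher 188 and 96, so the balance of the 2 directions turned over with this threshold. Leaving out 1 RPC tumour gave 207 to 417 genes higher, 1282 to 1935 lower, 63 to 103 lost, and 155 to 325 higher and 157 to 263 lower among expressed genes. The count of lower genes was under the full 1374 without tumour 2 (1282) and tumour 7 (1295). The slope on Ctss in RP tumours was called for 231 genes by DESeq2 and for 0 to 1 by edgeR without 1 RP tumour. Without the 2 RP tumours farthest from the median Ctss, Pearson's r no longer passed for Lyz2 (0.786) and Pecam1 (0.485) and turned positive for Cyp51 (0.074) and Sc4mol (0.088). The same named genes and lists were recomputed under each setting and are counted again each time. Counted so, 483 single-gene differences stayed within 1 SD of the main value and 1 moved further. Of the list medians, 236 stayed and 17 moved. Signs changed for 3 list medians near 0 (unfolded protein and heat shock, serum and NRF2, glycolysis and hypoxia) and for the uncalled differences of Crebbp, Ep300 and Mycl1, the last to 1.05 without tumour 5. Choosing the groups by Lyz2 or Col3a1 gave the same 3 and 4 tumours. No paired analysis was possible because no label pairs a stroma-poor tumour (3, 5 or 6) with a stroma-containing one (1, 2, 4 or 7). Genes at 0 counts are bounded only to 3 counts, and 3 against 4 tumours limits the precision of every difference.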

Other observations

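Rarer cell types and the stress genes were not part of the account above. Of 5 ciliated cell genes 3 were lower in the stroma-poor RPC tumours. Foxj1, the master factor of motile cilia, was at 3.17, 2.25 and 3.11 CPM in tumours 3, 5 and 6 and 22.1, 11.5, 4.99 and 13.1 CPM in tumours 1, 2, 4 and 7. Of 5 mesothelial genes 4 were lower. Msln, mesothelin of the pleural lining, was at 2.76, 0.11 and 0 against 6, 37.5, 7.77 and 7.38 CPM, so tumour 3 held a trace that tumours 5 and 6 did not, and Upk3b, a uroplakin that mesothelium expresses, was at 0, 0 and 0.0888 against 2, 26.7, 1.64 and 6.93 CPM.

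Fabp4, a fatty acid carrier of adipocytes, capillaries and macrophages, was lost, at 0, 0 and 0.178 against 26.3, 22.5, 114 and 5.07 CPM with tumour 4 the highest. Tumour 4 was also the highest RPC tumour for the heart muscle myosin Myh6, at 0.102, 0.11 and 0 against 1.49, 0.54, 19.1 and 1.33 CPM. Muc5b, a mucin of secretory cells, was with Scgb1a1 1 of the 2 club cell genes of 7 called lower. Among erythroid and platelet genes Alas2 and Pf4 were lower, 2 of 3 compared.

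Of 16 genes of the unfolded protein and heat shock response 1 was lower, with a median of 0.001 whose sign changed with the scaling. It was Hspa1b, an inducible heat shock protein, at 0.511, 0.768 and 1.07 against 17.9, 17.4, 1.23 and 1.6 CPM, high in tumours 1 and 2 only, and its reads may be shared with the near-identical Hspa1a. Of 14 serum and NRF2 response genes 0 were called. Among 23 glycolysis and hypoxia genes, with 17 negative differences and a median of -0.22, Slc2a1, the basal glucose carrier, was at 51, 95.4 and 37 against 158, 1005, 33.2 and 141 CPM, high in tumour 2.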
